A study of Mus musculus with 2 samples.

Results

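Selectins and leukocyte adhesion molecules are the surface proteins by which blood cells catch on a vessel wall, stop and leave the blood. The set held 8 genes, Selp, Sele, Selplg, Icam1, Vcam1, Itga4, Itgal and Itgb2, taken by symbol from the 56893 gene symbols of the count files. All 8 were found, and all 8 were measured, that is, had at least 20 unique molecular identifiers (UMIs, counts of single RNA molecules) in some cell class of each library. The values come from 2 single-cell RNA libraries of mouse alveolar bone, in which the teeth of the jaw are rooted, from a study of orthodontic tooth movement. In the force group a nickel-titanium spring pulled the upper right first molar of C57BL/6J mice with a constant 25 g, and control mice carried the spring unloaded. All mice were 6 to 8 weeks old, and on day 7 bone within 1 mm of the emptied socket was taken and pooled from 6 mice of a group. No label ties either library to force or control. They are called library 1 and library 2, force is not compared with control, and a pair of values always gives library 1 and then library 2.

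Capture of a passing leukocyte begins with P-selectin (Selp) and E-selectin (Sele) on activated endothelium, which bind PSGL-1 (Selplg), a sugar-bearing protein of the leukocyte. Firm arrest follows when integrins on the leukocyte change shape: LFA-1, made of the chains encoded by Itgal and Itgb2, binds ICAM-1, and VLA-4, whose alpha chain is encoded by Itga4, binds VCAM-1. In bone marrow the same molecules also hold blood-forming cells to sinusoids, stromal cells and macrophages.

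The window around the start site is shown for Sele, Selp and Icam1, the 3 genes of the set with the clearest single cell class. Each sequence runs 5′ to 3′ on the plus strand, from 250 bases before the RefSeq start site to 50 after it, in build GRCm38.p6: Sele at chr1:164047984-164048283, Selp at chr1:164115014-164115313 and Icam1 at chr9:21015690-21015989. Capitals mark matches, on either strand, to GGGA, any 4 bases and CC, a loose spelling of the site of NF-kB. NF-kB is the factor known to switch on adhesion genes in inflamed endothelium.
Sele: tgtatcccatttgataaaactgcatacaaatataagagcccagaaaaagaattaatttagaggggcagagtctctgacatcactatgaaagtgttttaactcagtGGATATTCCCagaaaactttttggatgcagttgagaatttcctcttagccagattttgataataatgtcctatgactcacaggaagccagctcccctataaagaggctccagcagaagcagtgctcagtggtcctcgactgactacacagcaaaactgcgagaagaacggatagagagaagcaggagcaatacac
Selp: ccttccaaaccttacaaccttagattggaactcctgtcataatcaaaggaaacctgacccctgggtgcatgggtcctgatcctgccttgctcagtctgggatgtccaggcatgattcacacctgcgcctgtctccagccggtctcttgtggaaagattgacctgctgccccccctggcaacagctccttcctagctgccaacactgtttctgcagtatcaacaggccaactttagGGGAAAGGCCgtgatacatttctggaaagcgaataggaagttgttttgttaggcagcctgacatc
Icam1: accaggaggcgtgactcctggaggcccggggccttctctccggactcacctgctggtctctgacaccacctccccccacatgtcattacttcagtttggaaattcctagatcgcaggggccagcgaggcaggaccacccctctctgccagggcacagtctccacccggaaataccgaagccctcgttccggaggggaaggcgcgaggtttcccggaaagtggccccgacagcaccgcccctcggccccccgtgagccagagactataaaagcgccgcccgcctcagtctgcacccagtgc

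Both selectin windows held a match, in Sele at position -145 from the start site, read on the minus strand, and in Selp at -15 on the plus strand. The Icam1 window held no match. Other spellings of the site were not searched, so a window without a match may still hold a site, and a match may not be one. Of 32851 RefSeq windows of the same length, 20.7% held a match. TATAAA, the core of the TATA box, was searched on both strands and stood in the window of Sele at -49 and in that of Icam1 at 13, and in 13.6% of all windows. The motifs do not overlap each other in these windows. Sele and Selp lie on chromosome 1 in the same direction, Sele at 164048234 to 164057677 and Selp at 164115264 to 164150026 (GRCm38, GENCODE M21). GENCODE M21 starts Icam1 at 21015985, downstream of its RefSeq start site, and the TATAAA of Icam1 lies upstream of that GENCODE start. Exons of Selp, Icam1, Vcam1 and Itga4 overlap those of another annotated gene (Gm16548 and Gm16587, Gm47079, Gm43109, and Cerkl). Whether the counting used strand is not given in the sources used here, so counts of these 4 genes may hold reads of their neighbours.

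Cells numbered 9432 in library 1 and 11743 in library 2, at median depths of 3229.5 and 4412 UMIs. Clustering without the 8 genes gave 28 clusters, which were named from marker lists and joined into 22 classes, each of 20 cells or more per library. A class is called by the type whose markers it carried, with -like added because nothing else identified it. Endothelial-like cells, 302 and 591 in number, had 8 of 8 endothelial markers raised and stood at medians of 5036 and 4566 UMIs. Levels are given as CPM, the UMIs of a gene per 1000000 UMIs of named genes in a class, with 95% Poisson intervals in parentheses, and are compared between classes but not between genes. Free RNA was measured in barcodes with under 100 UMIs, and its levels lay near those of all cells together, for Selp at 229 and 329 CPM in free RNA and 262 and 355 CPM in all cells, so a class above free RNA is a class above the tissue average. The libraries shared 70 cell barcodes. Each library is a single pool, cells are not replicates, and no test was made.

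The class with the highest level was shared by both libraries for 7 of the 8 genes, where 54.4% of the 14015 measured genes shared theirs. For Selp, Sele and Icam1, 3 of 8 genes, that class exceeded each other class by 2-fold or more in either library, where 11.7% of measured genes reached this, and for all 3 the class was endothelial-like cells. The ratio of the highest class to the next, taken as the lower of the libraries' values, had a median of 1.41 over the 8 genes and of 1.15 over all measured genes. Selplg was highest in plasmacytoid dendritic-like cells, Itga4 and Itgal in NK-like cells and Itgb2 in mature neutrophil-like cells. Vcam1 was highest in endothelial-like cells in library 1 and in macrophage-like cells in library 2.

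**Figure D1:**
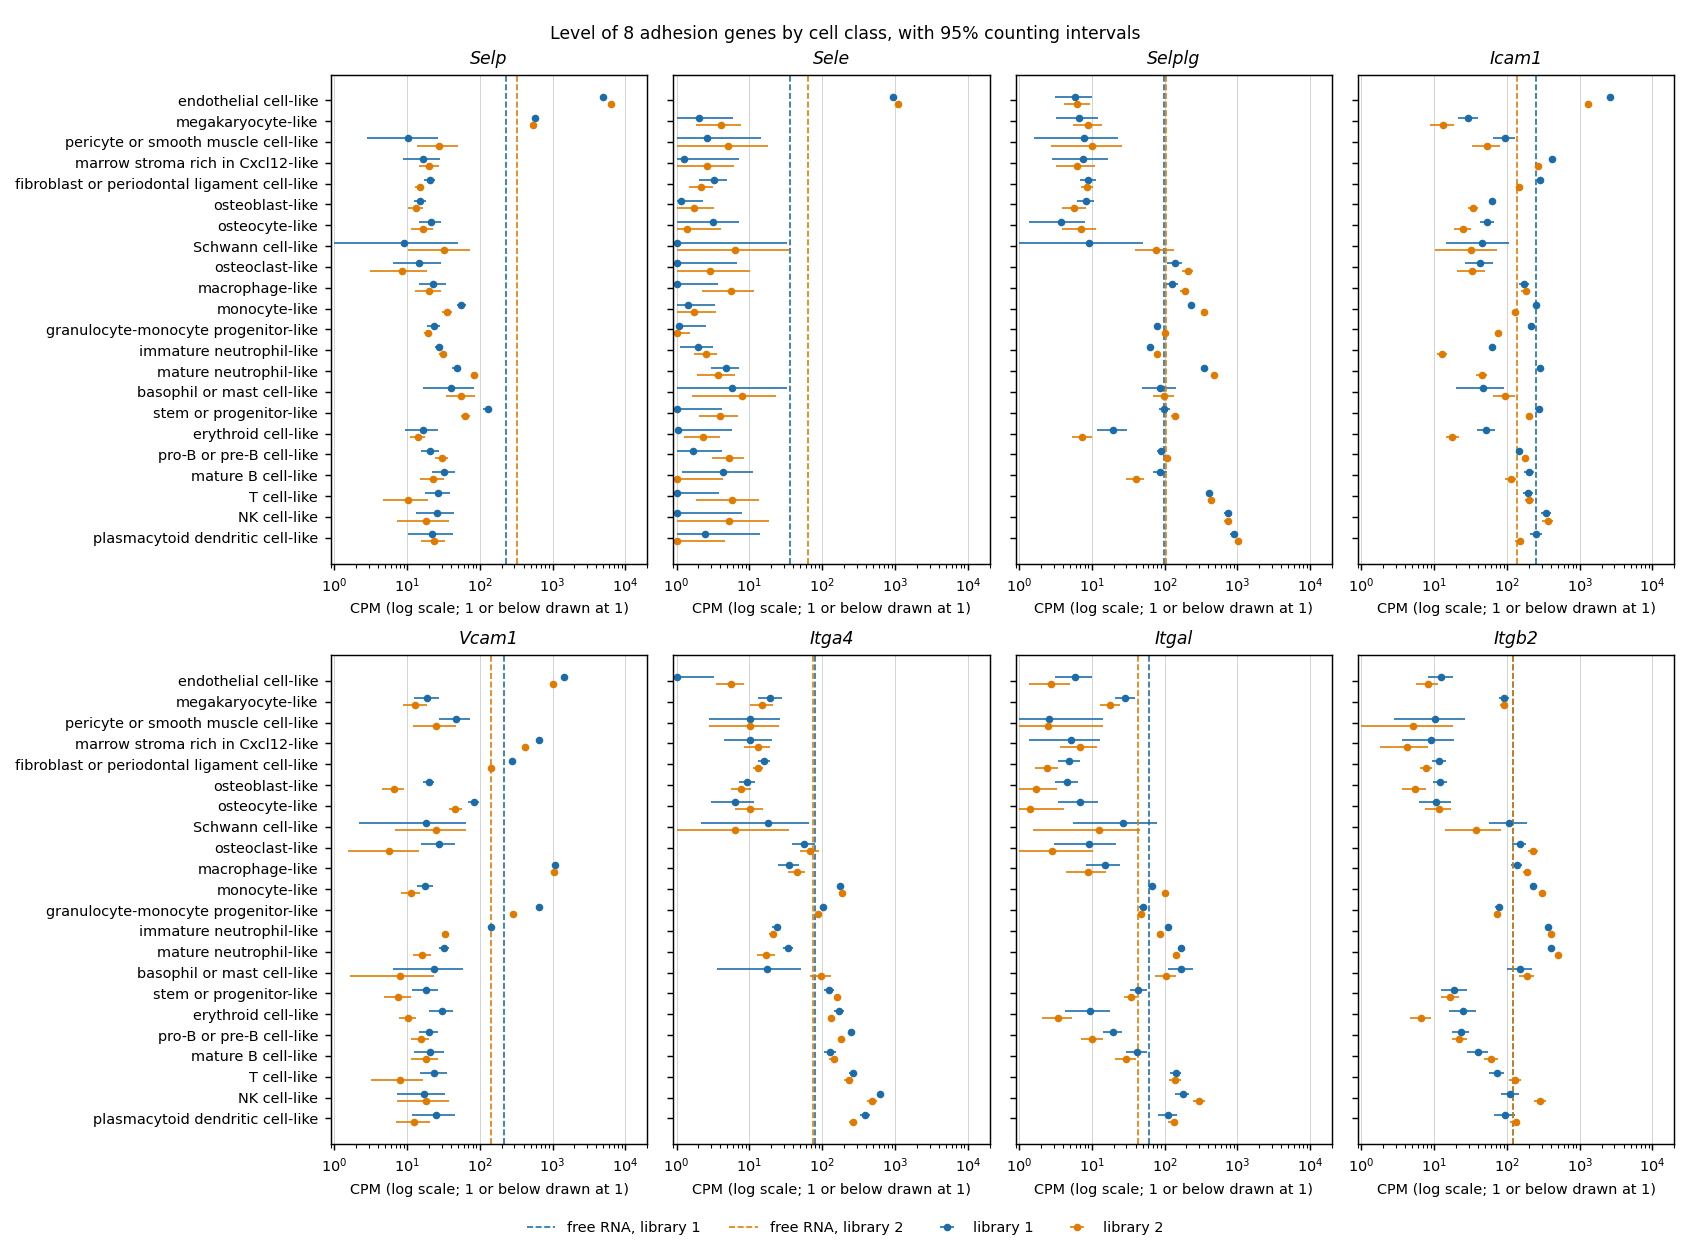
Level of each of the 8 genes in 22 cell classes, in CPM on a log axis, with points for each library, bars for 95% counting intervals and dashed lines for the level in free RNA of each library. Selp and Sele stand apart in endothelial-like cells at 4987 and 6304 CPM and 945 and 1101 CPM, while Selplg, Itga4, Itgal and Itgb2 are highest in blood cell classes.

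Selp encodes P-selectin, which endothelial cells and platelets store and bring to their surface on activation. It stood at 4987 CPM (4894 to 5082) and 6304 CPM (6225 to 6383) in endothelial-like cells. Megakaryocyte-like cells, the platelet-forming class, came next with 566 CPM (528 to 605) and 546 CPM (516 to 578). Endothelial-like cells were above them by a ratio of 8.82 (8.22 to 9.46) in library 1 and 11.5 (10.9 to 12.2) in library 2. These 2 classes of 22 were the ones whose interval lay above free RNA in both libraries. Endothelial-like cells held 83.0% and 88.9% of all Selp UMIs in cells, and megakaryocyte-like cells held 6.41% and 4.34%.

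A Selp UMI was found in 68.2% and 82.4% of endothelial-like cells and in 53.1% and 63.8% of megakaryocyte-like cells. Osteoblast-like cells, a bone-forming class that should lack the gene, had one in 12.7% and 9.50% of cells. Depth differed between these classes, with medians of 5036 and 4566 UMIs in endothelial-like, 1375 and 1866 UMIs in megakaryocyte-like and 7524 and 7104 UMIs in osteoblast-like cells. With each cell thinned to 1000 UMIs the shares were 54.3% and 74.4% in endothelial-like, 38.8% and 40.5% in megakaryocyte-like and 1.37% and 1.56% in osteoblast-like cells. Too shallow for thinning were 9 and 1 endothelial-like, 80 and 12 megakaryocyte-like and 32 and 1 osteoblast-like cells.

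Stem- or progenitor-like cells had 128 CPM (109 to 149) and 63.5 CPM (54.8 to 73.1) of Selp, below free RNA. The 8 megakaryocyte markers summed to 498 CPM in the 95 stem- or progenitor-like cells of library 1 with no Selp UMI, 1007 CPM in the 42 with 1 to 2, 2859 CPM in the 13 with 3 to 9 and 8713 CPM in the 4 with 10 or more. In library 2 they summed to 544 CPM in the 230 cells with none, 3198 CPM in the 70 with 1 to 2 and 1602 CPM in the 21 with 3 to 9. Cells with Selp thus had more megakaryocyte RNA than cells without it in both libraries. Depth differed too: from no Selp UMI upward the medians were 5831, 7670.5, 6271 and 29796 UMIs in library 1. In library 2 they were 7404, 9322.5 and 13046 UMIs. The part of megakaryocyte RNA in the Selp level of this class was not tested. In the other 19 classes Selp had a median of 22.4 and 20.4 CPM and a maximum of 55.6 and 84.5 CPM.

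Sele encodes E-selectin, known from cytokine-stimulated endothelium and from marrow vessels. It stood at 945 CPM (904 to 986) and 1101 CPM (1069 to 1134) in endothelial-like cells, which held 95.4% and 96.0% of its UMIs in cells. The next class, basophil- or mast-like cells, rested on 1 and 3 UMIs, so that the ratios of 162 (22.8 to 1150.2) and 137 (44.2 to 426) are loose. Over the other 21 classes the median was 1.46 and 2.86 CPM, against 36.5 and 64.2 CPM in free RNA. Sele was found in 58.9% and 70.4% of endothelial-like cells and in 1.05% and 1.38% of osteoblast-like cells, and after thinning in 34.8% and 46.3% of endothelial-like cells and 0.412% and 0.519% of osteoblast-like cells.

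The 2 selectins parted in megakaryocyte-like cells, where Sele had 2.02 and 4.06 CPM from 3 and 9 UMIs. Selp UMIs per Sele UMI numbered 280.3 and 135 in megakaryocyte-like cells, 5.28 and 5.73 in endothelial-like cells and 6.27 and 5.12 in free RNA. Sele was sparse in the other classes, whose ratios lay on both sides of the endothelial ones. They were 169 and 16.1 in stem- or progenitor-like, 38.2 and 20.9 in monocyte-like and 21.6 and 23.6 in granulocyte-monocyte progenitor-like cells. In macrophage-like cells of library 2 the ratio was 3.57. The 8 endothelial markers summed to 179.6 and 174 CPM in megakaryocyte-like cells.

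**Figure D2:**
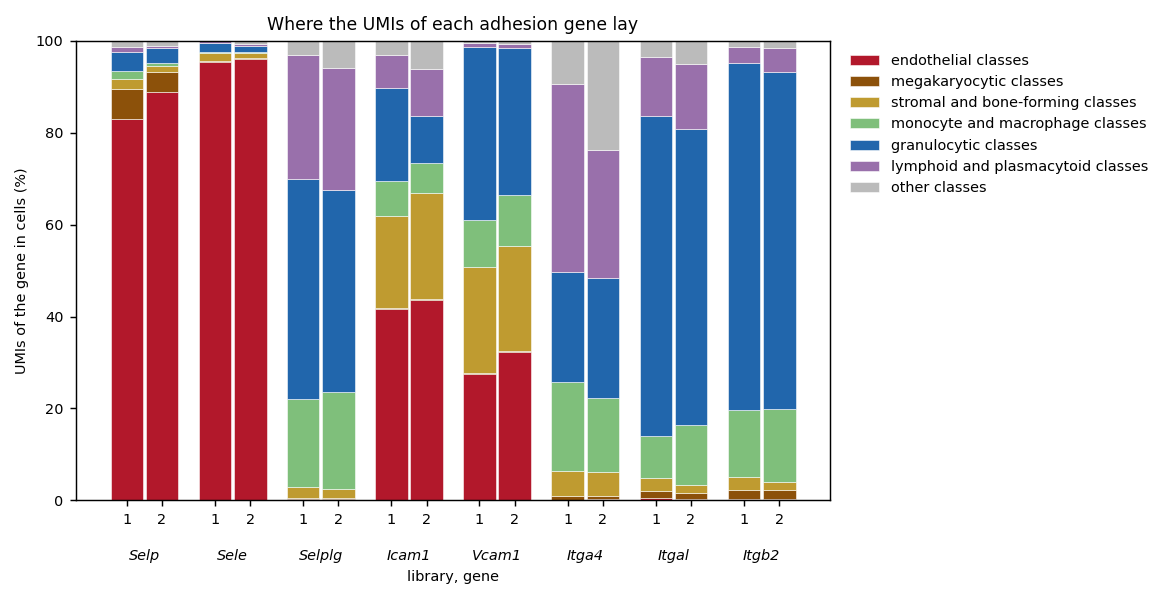
Share of the UMIs of each gene in cells, in percent, held by groups of classes, with library 1 and library 2 as the left and right bar of each gene. Endothelial-like cells hold 83.0% and 88.9% of Selp and 95.4% and 96.0% of Sele, and granulocytic classes hold 75.4% and 73.2% of Itgb2.

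Within endothelial-like cells, Sele was found in 77.2% and 80.7% of cells with Selp and in 19.8% and 22.1% of cells without it. Cells with Selp were deeper, at medians of 6063 and 4933 UMIs against 3557 and 3393 UMIs. At 1000 UMIs per cell, Sele was found in 54.1% and 56.7% of cells with Selp and in 11.9% and 15.9% of cells without it. Both selectins thus tended to be found in the same cells also at equal depth. All of Selp, Sele, Icam1 and Vcam1 were found in 139 and 279 cells, 46.0% and 47.2% of the class, at medians of 6913 and 6664 UMIs. None of them was found in 19 and 37 cells, 6.29% and 6.26%, at medians of 2842 and 2254 UMIs.

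Selp was unevenly spread among these cells. The median endothelial-like cell had 7 and 21 Selp UMIs and the highest had 673 and 792. The top 10% of cells by Selp, 30 and 59 cells, held 58.7% and 46.7% of the Selp UMIs of the class and 20.4% and 23.5% of its UMIs of all genes. The same share, for the top 10% of cells by each gene, was 66.4% and 51.7% for Sele, 46.3% and 48.1% for Icam1 and 57.8% and 53.6% for Vcam1.

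Endothelial-like cells were clustered again without the 8 genes, which gave 4 sub-clusters of 20 cells or more per library. Arterial-like cells had 7 of 8 arterial markers raised and were led by Sema3g, Fbln5 and Gja4. The others met no list and are called by their leading genes: Ptgs2, Gbp2 and Rgs5, then Ccn2, Ccn1 and Cmss1, and then Fos, Fosb and Socs3, the first of which are immediate early genes. The haemoglobin genes Hba-a2, Hba-a1 and Hbb-bs were also among the leading genes of the Ccn2 sub-cluster. Its median depth was 3395.5 UMIs, against 5435, 7246 and 8518 UMIs in the Fos, arterial-like and Ptgs2 sub-clusters. The part of free RNA and depth in its levels was not tested. A further sub-cluster, led by H2ac24, Rsad2 and Mki67, had 9 and 12 cells and is not described.

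Selp was highest in the Ptgs2 sub-cluster (43 and 122 cells), with 11250.1 CPM (10933 to 11574) and 8754 CPM (8591 to 8919). The Ccn2 sub-cluster (59 and 263 cells) followed with 9743 and 7419.6 CPM and the Fos sub-cluster (126 and 164 cells) with 3652 and 4911 CPM. Arterial-like cells (65 and 30 cells) were lowest, with 1731 CPM (1621 to 1846) and 10.2 CPM (2.10 to 29.7), in library 2 from 3 UMIs. The order was the same in both libraries, and no neighbouring intervals overlapped. Plvap, a gene of fenestrated and sinusoidal vessels, had 1066 and 74.6 CPM in arterial-like cells, against 1305 to 1612 CPM in the other 3 sub-clusters of library 1 and 916 to 1406 CPM in those of library 2. Arterial-like cells of library 1 thus held both more Selp and more Plvap than those of library 2, and the part of mixed cells in this was not tested.

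Sele ran from 915 to 1583 CPM over the non-arterial sub-clusters in library 1 and from 1085 to 1418 CPM in library 2, in a different order in each. Arterial-like cells were below all of them, with 283 CPM (239.7 to 332) and 40.7 CPM (21.0 to 71.1). Icam1 was likewise lowest in arterial-like cells, with 1718 and 366 CPM. It was highest in the Ptgs2 sub-cluster in library 1, at 3886 CPM, and in the Fos sub-cluster in library 2, at 1645 CPM. Vcam1 had another order: arterial-like cells, with 1794 CPM (1683 to 1911) and 1065 CPM (951 to 1189.7), stood above the Fos sub-cluster, with 838 CPM (779.9 to 899) and 678 CPM (633 to 725). The Ptgs2 sub-cluster was highest for Vcam1, with 2273 CPM (2131 to 2421) and 1249 CPM (1188 to 1313), followed in library 2 by the Ccn2 sub-cluster at 1177 CPM, whose interval met its own.

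**Figure D3:**
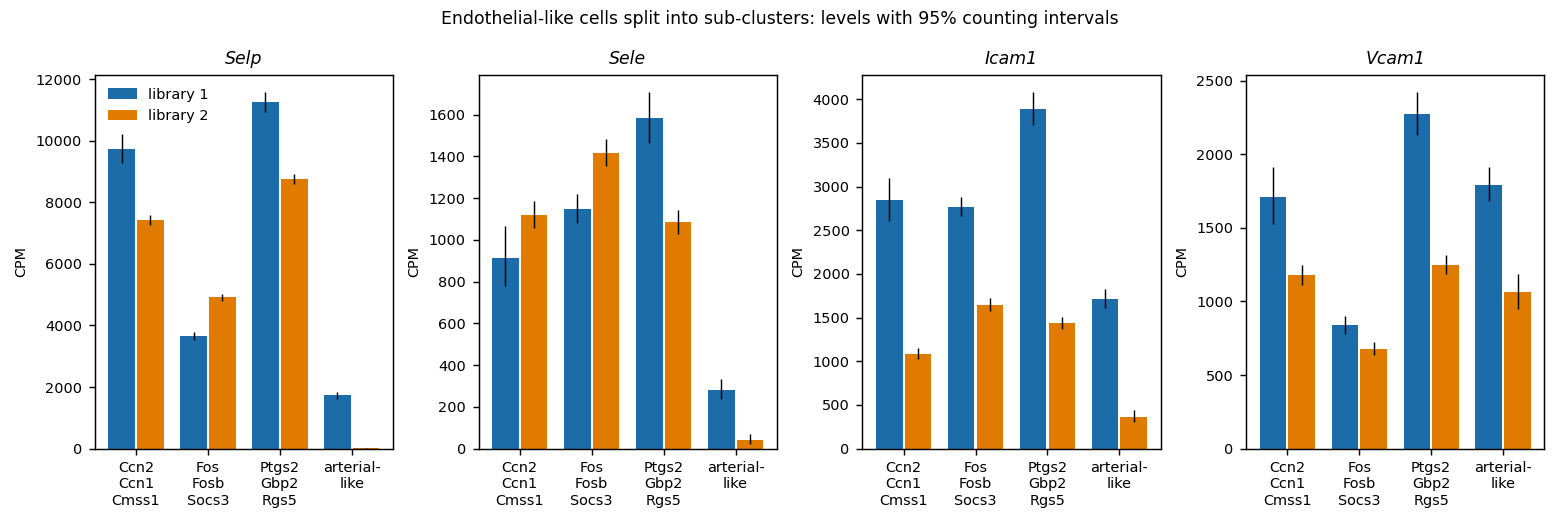
Level of Selp, Sele, Icam1 and Vcam1 in CPM in 4 sub-clusters of endothelial-like cells, with a bar for each library and 95% counting intervals. Selp, Sele and Icam1 are lowest in arterial-like cells in both libraries, while Vcam1 is lowest in the Fos sub-cluster.

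Icam1, the ligand of LFA-1 and of other integrins with the Itgb2 chain, stood at 2640.2 CPM (2572 to 2709) and 1315 CPM (1279 to 1351) in endothelial-like cells. The next class was Cxcl12-rich stroma in library 1, with 422 CPM, and NK-like cells in library 2, with 363 CPM. The ratios were 6.26 (5.60 to 7.00) and 3.62 (3.06 to 4.28). Endothelial-like cells held 41.6% and 43.5% of Icam1 UMIs, a smaller share than of either selectin, and stromal and bone-forming classes held 19.9% and 23.0%. Icam1 was found in 86.8% and 75.3% of endothelial-like cells and in 28.3% and 17.6% of osteoblast-like cells, and after thinning in 69.6% and 49.8% of endothelial-like cells and 7.54% and 3.29% of osteoblast-like cells.

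Icam1 lay above free RNA, at 255 and 136 CPM, in 4 classes in both libraries: endothelial-like cells, Cxcl12-rich stroma with 422 and 270.0 CPM, NK-like cells with 348 and 363 CPM, and fibroblast- or ligament-like cells with 281 and 149 CPM. Among the last, the cluster led by Egr1, Prss23 and Fos, immediate early genes among them, had 338 CPM (315 to 362) and 241 CPM (222 to 262). The cluster led by the matrix genes Aspn, Tnn and Postn had 233 CPM (219 to 249) and 114 CPM (107 to 121). A cluster led by Igfbp6 and Wif1 had 615 CPM (503 to 745) and 193 CPM (175 to 212), in library 1 from 25 cells.

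In blood cells Icam1 also varied within classes. Mature neutrophil-like cells led by Il1b and Hcar2 had 411 CPM (388 to 435) and 99.7 CPM (80.3 to 122), against 98.0 CPM (84.1 to 114) and 23.4 CPM (17.6 to 30.4) in those led by Retnlg and Mmp8. Among early B-lineage cells, the cluster led by Igll1 had 167 and 252 CPM and the one led by Ighm and Cd79b had 91.5 and 62.4 CPM. Icam1 in all cells together stood at 277 and 151 CPM, and whether the libraries differ by group, pool or handling cannot be told apart.

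Vcam1, the ligand of VLA-4, had no single class. Endothelial-like cells had 1440.1 CPM (1390.2 to 1491) and 1006 CPM (975 to 1038), and macrophage-like cells had 1092 CPM (1028 to 1159) and 1055 CPM (999 to 1114). In library 2 the 2 classes lay within counting error of each other. Leaving out cells of under 2000 UMIs changed the classes as well, to 23 in number. The macrophage-like class of library 2 then had 633 CPM. The part of shallow cells in this was not tested. Cxcl12-rich stroma had 651 CPM (596 to 710.1) and 419 CPM (390.0 to 449), and granulocyte-monocyte progenitor-like cells had 647 CPM (624 to 670.2) and 289.5 CPM (280.0 to 299). These 4 classes were the ones above free RNA, at 213 and 143 CPM, in both libraries. Of the Vcam1 UMIs in cells, granulocytic classes held 37.6% and 32.0%, endothelial-like cells 27.5% and 32.2% and stromal and bone-forming classes 23.0% and 22.9%.

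Vcam1 was found in 72.2% and 64.5% of endothelial-like, 66.7% and 54.4% of macrophage-like and 69.4% and 56.0% of progenitor-like cells, against 13.8% and 4.15% of osteoblast-like cells. After thinning the shares were 41.6% and 41.2%, 44.7% and 36.3% and 34.1% and 22.2% in those 3 classes and 3.57% and 0.692% in osteoblast-like cells. The median depth was 7732 and 6014 UMIs in macrophage-like and 16330 and 19903 UMIs in progenitor-like cells.

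Vcam1 was concentrated in some of the macrophage-like cells. Those with at least 10 Vcam1 UMIs, 38 and 36 of 126 and 182 cells, held 84.3% and 83.7% of the Vcam1 UMIs of the class. The 9 erythroid markers, haemoglobin genes among them, summed to 4732 and 6936 CPM in the 42 and 83 macrophage-like cells with no Vcam1, 215 and 2233 CPM in the 20 and 31 with 1 to 2 UMIs, 5729.5 and 1766 CPM in the 26 and 32 with 3 to 9 and 29073 and 99720.5 CPM in those with at least 10. They were thus highest in the cells with at least 10 Vcam1 UMIs, and did not climb step by step below that. Macrophage markers summed to 27689 and 21332 CPM in the cells with at least 10 UMIs and to 21528 and 19073 CPM in those with none. As background, macrophages that nurse developing red cells are known to carry VCAM-1 and to hold erythroblasts through VLA-4. The part of erythroid cells held with these cells was not tested.

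Across the clusters of the neutrophil lineage Vcam1 lay at the early end. It had 647 and 289.5 CPM in granulocyte-monocyte progenitor-like cells, led by Elane, Mpo and Ctsg, and 230.3 CPM (217 to 245) and 50.8 CPM (45.6 to 56.4) in the immature neutrophil-like cluster led by Camp, Chil3 and Fcnb. The later clusters, led by Ifitm6 and Ltf, by Retnlg and Mmp8, and by Il1b and Hcar2, had 21.8 to 32.8 CPM in library 1 and 11.6 to 18.4 CPM in library 2.

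Vcam1 UMIs were concentrated in some of the progenitor-like cells as well. Progenitor-like cells with at least 10 Vcam1 UMIs, 84 and 128 of 265 and 554 cells, held 88.5% and 79.2% of the Vcam1 UMIs of their class. The median depth was 19048 and 26594 UMIs in these cells and 10801 and 14574 UMIs in progenitor-like cells without Vcam1. Their macrophage markers summed to 48.7 and 23.7 CPM, against 72.8 and 36.0 CPM in cells without Vcam1, and 26339 and 20139 CPM in macrophage-like cells. Progenitor markers summed to 24629.7 and 34401 CPM in the cells with at least 10 UMIs and to 11262 and 16911 CPM in those without. Immature neutrophil markers were likewise higher in the cells with at least 10 UMIs, at 14106 and 6554 CPM against 3376 and 3081 CPM. Within this class Vcam1 thus did not lie in the cells with the least neutrophil RNA.

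Vcam1 varied among stromal classes as well. Cxcl12-rich stroma stood above the matrix cluster led by Aspn and Tnn, with 321 CPM (303 to 338) and 151 CPM (143 to 159), and the cluster led by Egr1 had 210.0 CPM (192 to 229) and 212 CPM (193 to 231). Osteocyte-like cells, led by Spp1 and Dmp1, had 82.2 CPM (68.7 to 97.6) and 46.3 CPM (37.6 to 56.4), against 20.0 CPM (16.8 to 23.7) and 6.56 CPM (4.54 to 9.17) in osteoblast-like cells.

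Selplg encodes PSGL-1, the leukocyte ligand of the selectins. It was highest in plasmacytoid dendritic-like cells, with 892 CPM (802 to 989) and 1023 CPM (966 to 1081), and NK-like cells followed with 738 CPM (663 to 820.3) and 734 CPM (651 to 825). The ratios of 1.21 (1.04 to 1.40) and 1.39 (1.22 to 1.58) were small. At Leiden resolution 0.5, a coarser clustering, the class had 291 and 403 CPM, and NK-like cells of library 1 and mature neutrophil-like cells of library 2 were highest. With each library clustered on its own it had 373 CPM in library 1, where NK-like cells were highest. T-cell-like cells had 407 and 433 CPM, mature neutrophil-like cells 347 and 484 CPM and monocyte-like cells 229 and 351 CPM. Osteoclast-like cells, the bone-resorbing class, had 138 CPM (109 to 173) and 209 CPM (177 to 246), and macrophage-like cells had 127 CPM (106 to 151) and 189 CPM (166 to 215). These 7 classes lay above free RNA, at 99.8 and 106 CPM, in both libraries. Endothelial-like cells had 5.95 and 6.35 CPM from 13 and 25 UMIs.

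Granulocytic classes held 47.9% and 44.0% of the Selplg UMIs in cells, the lymphoid and plasmacytoid classes 26.9% and 26.5%. Selplg was found in 80.8% and 90.7% of plasmacytoid dendritic-like and 43.5% and 61.3% of mature neutrophil-like cells, against 4.30% and 3.55% of endothelial-like cells. Mature neutrophil-like cells were shallow, with medians of 1986 and 2615 UMIs, and plasmacytoid dendritic-like cells had 4062 and 4970 UMIs. After thinning the shares were 46.2% and 58.1% in plasmacytoid dendritic-like, 25.8% and 34.8% in mature neutrophil-like and 0.341% and 1.19% in endothelial-like cells.

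The 5 granulocytic clusters were set in order from progenitor-like through immature to mature neutrophil-like classes. Within the immature class the cluster with more Fcnb came first, and within the mature class the one with more Mmp8. Whether the Il1b cluster is a later stage than the Retnlg cluster was not tested. Selplg had 79.7 and 103 CPM in progenitor-like cells, 39.7 and 49.1 CPM in the Camp cluster and 92.5 and 120.0 CPM in the Ifitm6 cluster. It had 298 CPM (273 to 324) and 439 CPM (413 to 467) in the Retnlg cluster and 378 CPM (356 to 401) and 599 CPM (550.1 to 651) in the Il1b cluster. Selplg was thus lowest in the Camp cluster and highest in the Il1b cluster, and no intervals of neighbouring clusters overlapped in either library.

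**Figure D4:**
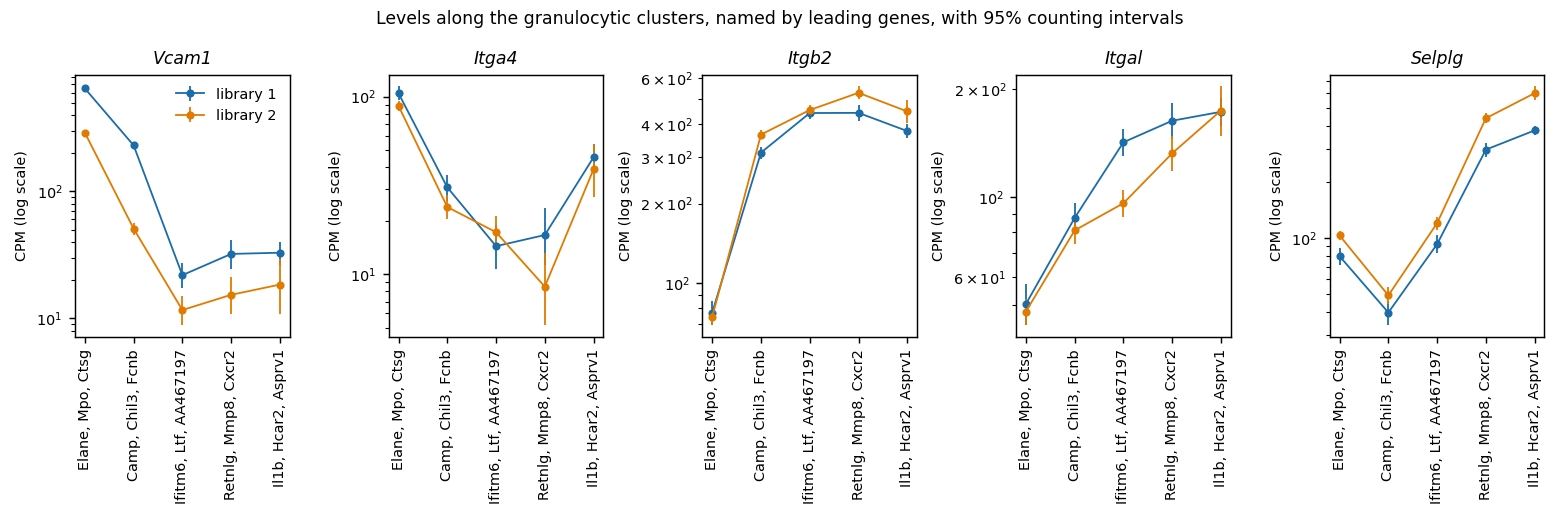
Level in CPM on a log axis of Vcam1, Itga4, Itgb2, Itgal and Selplg in 5 granulocytic clusters, set from progenitor-like to mature from left to right, with a line for each library and 95% counting intervals. Vcam1 and Itga4 are highest at the left, Selplg at the right, and Itgb2 is lowest in the first cluster.

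Itgb2 encodes the beta chain that the leukocyte integrins share. It was highest in mature neutrophil-like cells, with 403 CPM (385 to 422) and 506 CPM (482 to 531), and immature neutrophil-like cells followed with 368 CPM (355 to 382) and 405 CPM (393 to 416). The ratios were 1.09 (1.03 to 1.16) and 1.25 (1.18 to 1.32). Monocyte-like cells had 231 CPM (215 to 247) and 305 CPM (288 to 322) and made up, with them, the 3 classes above free RNA, at 122 and 123 CPM, in both libraries. Itgb2 was found in 47.5% and 67.4% of mature and 67.8% and 79.8% of immature neutrophil-like cells, against 8.61% and 4.91% of endothelial-like cells. After thinning the shares were 29.1% and 38.0% in mature and 28.3% and 31.9% in immature neutrophil-like cells, against 1.37% and 1.19% in endothelial-like cells.

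Along the granulocytic clusters Itgb2 had 77.1 and 74.2 CPM in progenitor-like cells and 313 CPM (297 to 329) and 366 CPM (352 to 381) in the Camp cluster. In the later clusters it lay at 378 to 443 CPM in library 1 and 448 to 528 CPM in library 2. Itgb2 was thus above its progenitor level in the Camp cluster, where Selplg was lowest. Itgam, which pairs with Itgb2 as Mac-1, had 475 and 468 CPM in immature and 369 and 514 CPM in mature neutrophil-like cells.

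Itgal encodes the alpha chain of LFA-1. It was highest in NK-like cells, with 177 CPM (141 to 219.5) and 301 CPM (249 to 361), and mature neutrophil-like cells had 169 CPM (158 to 181) and 144 CPM (132 to 158). The ratio of 1.05 (0.835 to 1.31) in library 1 lay within counting error, and that in library 2 was 2.09 (1.70 to 2.56). The level in NK-like cells of library 2 was 189.9 CPM at resolution 0.5. T-cell-like cells had 143 and 141 CPM, basophil- or mast-like cells 169 and 104 CPM from 29 and 39 UMIs, plasmacytoid dendritic-like cells 112 and 133 CPM and immature neutrophil-like cells 111 and 87.5 CPM. These 6 classes lay above free RNA, at 61.2 and 43.0 CPM, in both libraries. Itgal was found in 34.6% and 57.9% of NK-like cells and 4.07% and 1.55% of osteoblast-like cells, and after thinning in 20% and 22.3% of NK-like and 0.960% and 0.173% of osteoblast-like cells. Along the granulocytic clusters it had 50.4 and 48.0 CPM, 87.5 and 80.8 CPM, 142 and 96.2 CPM, 163 and 133 CPM and 173 and 174 CPM from progenitor-like cells to the Il1b cluster, each value above the one before. In library 1 neighbouring intervals overlapped from the Ifitm6 cluster on, at 130 to 155, 145 to 183 and 158 to 189 CPM, so the later steps there lay within counting error.

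The chains of LFA-1 did not keep one ratio over classes. Itgal UMIs per Itgb2 UMI numbered 1.60 and 1.06 in NK-like cells and 1.97 and 1.10 in T-cell-like cells, against 0.420 and 0.285 in mature neutrophil-like and 0.109 and 0.0460 in macrophage-like cells. In osteoclast-like cells Itgb2 had 149 and 228 CPM and Itgal 9.20 and 2.86 CPM, the last from 5 and 2 UMIs.

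Itga4 encodes the alpha chain of VLA-4. It was highest in NK-like cells, with 629 CPM (559.7 to 706) and 485 CPM (418 to 560.1), and plasmacytoid dendritic-like cells followed with 392 CPM (334 to 459) and 264 CPM (236 to 294). The ratios were 1.60 (1.32 to 1.95) and 1.84 (1.54 to 2.20). At resolution 0.5 NK-like cells were still highest, with 385 and 309 CPM. T-cell-like cells had 266 and 230.5 CPM, early B-lineage cells 250.0 and 184 CPM, monocyte-like cells 176 and 186 CPM and erythroid-like cells 169.8 and 132 CPM. Itga4 lay above free RNA, at 79.1 and 74.8 CPM, in 9 classes in both libraries, the largest number among the 8 genes. Itga4 was found in 64.1% and 63.2% of NK-like cells and in 6.57% and 6.04% of osteoblast-like cells, and after thinning in 38.7% and 33.0% of NK-like and 0.960% and 0.865% of osteoblast-like cells.

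Among the clusters compared in each of 3 blood lineages, Itga4 was highest in the earliest. Stem- or progenitor-like cells, with 123 and 159 CPM, were not placed in these lineages. Erythroid-like cells led by Ahsp and Car2 had 208 CPM (177 to 243) and 198 CPM (183 to 213), against 33.3 CPM (13.4 to 68.6) and 29.1 CPM (22.4 to 37.2) in those led by haemoglobin genes, whose haemoglobin UMIs also enlarge the total behind CPM. In the B lineage the cluster led by Igll1 had 289.7 CPM (265 to 316) and 221 CPM (201 to 243), the cluster led by Ighm and Cd79b 131 and 129 CPM and mature B-like cells 128 and 144 CPM. Granulocyte-monocyte progenitor-like cells had 104 and 88.7 CPM, against 30.8 and 23.9 CPM in the Camp cluster, 14.4 and 17.2 CPM in the Ifitm6 cluster, 16.6 and 8.50 CPM in the Retnlg cluster and 45.5 and 39.0 CPM in the Il1b cluster. Vcam1 and Itga4, which encode a ligand and a chain of its receptor, were thus both higher in granulocyte-monocyte progenitor-like cells than in each later granulocytic cluster.

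Itga4 pairs either with Itgb1, as VLA-4, or with Itgb7, in the integrin of gut-homing leukocytes. Itgb1 UMIs per Itgb7 UMI numbered 6.77 and 3.27 in NK-like cells and 1.46 and 1.07 in T-cell-like cells. Monocyte-like cells had 0.754 and 0.528, with 231 and 326 CPM of Itgb7, its highest level in both libraries. The genes leading this class included H2-Ab1, H2-Eb1 and H2-Aa, and whether it mixed cell types was not tested. Early B-lineage cells had 78.9 and 84.1 CPM of Itgb1 and 1.25 and 4.02 CPM of Itgb7.

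The same count was made for 5 lists of pathway genes. Of the partners of selectins and the enzymes that sugar their ligands, 15 were measured, 8 had a shared highest class and 2 passed 2-fold. These shares, 53.3% and 13.3%, lay near the 54.4% and 11.7% of all measured genes. The 2 were Podxl, a sialomucin of endothelium, with 245 and 187 CPM in endothelial-like cells, and Gcnt1, an enzyme that branches the sugars of PSGL-1, with 362 and 211 CPM in basophil- or mast-like cells. Fut7, the fucose enzyme of selectin ligands, had 46.7 and 16.1 CPM in basophil- or mast-like cells, from 8 and 6 UMIs, and the next class lay within counting error in either library. Cd34 had 359 and 327 CPM in endothelial-like cells. Of other integrin chains, 9 were measured, 6 were shared and 1 passed 2-fold, or 66.7% and 11.1% against 54.4% and 11.7% of all measured genes. The 1 that passed 2-fold was Itga1, with 369.5 and 172 CPM in pericyte- or smooth muscle-like cells. Itga9, another alpha chain able to bind VCAM-1, had 89.2 and 108 CPM in macrophage-like cells.

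Of genes that control the switching of integrins, 12 were measured and 11 were shared, or 91.7% against 54.4% of all measured genes. The 3 that passed 2-fold, 25% against 11.7%, were all highest in megakaryocyte-like cells. Fermt3, which encodes kindlin-3, had 1489 and 1386 CPM there, Rasgrp2, an activator of Rap1, 1237 and 1104 CPM and Tln1, which encodes talin, 1444 and 1372 CPM. Of other endothelial ligands and genes of passage through the wall, 15 were measured, 12 were shared and 7 passed 2-fold, or 80% and 46.7% against the same 54.4% and 11.7%, but 4 of the list were also cell markers, which bears on their class. Plvap had 1401 and 1085 CPM and Pecam1 1079 and 1365 CPM in endothelial-like cells, Cxcl12, a chemokine that arrests rolling cells, 1888 and 747 CPM in the stroma named by it, and Icam4, a red-cell ligand of integrins, 88.5 and 90.6 CPM in erythroid-like cells.

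Of NF-kB genes, receptors upstream of it and genes it switches on, 16 were measured, 10 were shared and 2 passed 2-fold. Of the list, 1 was also a cell marker. The shares, 62.5% and 12.5%, lay near the 54.4% and 11.7% of all measured genes, so the counts are no result about the list. The 2 that passed 2-fold were both highest in endothelial-like cells. Csf3, the granulocyte growth factor, had 602 and 364 CPM there, and Cxcl1, a neutrophil attractant, 3081 and 1841 CPM. Ccl2, a monocyte attractant, had 2050.4 and 952 CPM in macrophage-like cells. Within the endothelium Csf3 was highest in the Ptgs2 sub-cluster, with 1469.6 CPM (1356 to 1589.5) and 468 CPM (431 to 508), and lowest in arterial-like cells, with 156 CPM (125 to 194) and 132 CPM (94.1 to 181), as Selp was.

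The genes most like each of the 8 over the 22 classes were found by Pearson r of log2(CPM + 10), a description with no p, since classes of a library share its depth and free RNA. For Selp they were Tie1 (0.96 and 0.95), Shroom4 and Tek, and for Sele Dipk2b (0.99 and 0.99), Syt15 and Ushbp1. In endothelial-like cells Dipk2b had 9.16 and 10.9 CPM and Syt15 11.4 and 10.7 CPM, near the 10 CPM added before the log. Ushbp1 had 45.3 and 34.1 CPM. Sele was sparse outside endothelial-like cells, so its r values rest mainly on that class. For Selplg they were Ptprc (0.96 and 0.92), Epsti1 and Gpr65, where Ptprc encodes the leukocyte antigen CD45. For Itgb2 they were Fcer1g (0.93 and 0.94), Tyrobp and Cln3, for Itgal Tnfaip8l2 (0.90 and 0.92), Arhgap9 and Samsn1, and for Itga4 Cenpa (0.85 and 0.84), Gpr171 and H2-Q7. Values for Icam1 and Vcam1 were lower, with Dnajb5 (0.77 and 0.76), Rnf213 and Dll1 for Icam1 and Dab2 (0.75 and 0.80), Ch25h and Tslp for Vcam1. Among the 8 genes themselves r was 0.82 and 0.84 for Selp and Sele, 0.74 and 0.76 for Itgal and Itgb2, 0.51 and 0.48 for Icam1 and Vcam1 and -0.45 and -0.39 for Vcam1 and Itga4.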

How the data were processed

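The authors deposited raw counts of UMIs per gene and barcode for 2 libraries, unfiltered, with all 1769472 possible barcodes. Per the labels, bone was digested for 60 min with a kit solution and red cells were lysed. FastQC 0.11.9 and the builds GRCh38 and mm10 are listed, without a role, per the submitters' processing notes. For the aligner, the counting program and the annotation, the entry is not given in the sources used here. Named genes held 77572847 and 116775367 UMIs. Features with no symbol, 42693 of 99819, were left out with 0.602% and 0.431% of UMIs.

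Barcodes with at least 790 and 976 UMIs (the inflection of the rank curve), 200 genes and at most 20% mitochondrial UMIs were kept, 9928 and 12361 in all. Scrublet's automatic threshold marked 0 and 1 cells, so the 496 and 618 top-scoring cells, 5%, were taken out, and doublets may remain. Scanpy 1.11.5 clustered both libraries together (2000 variable genes without the 8 genes and the pathway genes that are no markers, 30 components, 15 neighbours, Leiden resolution 1.0 with igraph 0.11.9). A cluster was named from 28 lists if at least 3 markers and 50% of a list were raised 3-fold. Python 3.11.15, NumPy 2.4.6, SciPy 1.17.1 and pandas 2.3.3 computed sums per class and library, exact Poisson intervals for levels and Clopper-Pearson intervals for shares. Intervals cover counting error only, and cells are not replicates. Both libraries lack a group label, so no comparison of groups and no test was made. The ranking was tested on simulated data.

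All 8 genes are named. From each of the pathway lists up to 4 genes are named, those at least 2-fold above the next class in both libraries first and then others with a shared highest class, and likeness names the 3 genes with the highest r. The genes and lists were chosen with earlier results of these data known. Start-site windows come from RefSeq, and gene positions from GENCODE M21, matched by gene ID without its version.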

Additional observations from a re-analysis of the deposited data

How the results depend on the processing

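The count of genes with a shared highest class was 7 and lay between 5 and 8 under 14 alternatives of cell calling, doublet removal, clustering, scaling, depth, free RNA and class size. It was 5 at Leiden resolution 0.5, 6 with each library clustered on its own, and 8 with at least 2000 UMIs per cell, with thinning to 1000 UMIs and with classes merged into lineages. The count at least 2-fold above every other class was 3 under 13 of the alternatives and 4 with merged lineages, where Vcam1 joined. Selp, Sele and Icam1 were highest in endothelial-like cells, Itga4 in NK-like cells and Itgb2 in mature neutrophil-like cells, or all neutrophil-like cells where lineages were merged, in both libraries under all 14. Vcam1 was highest in macrophage-like cells of library 1 when thinned, and in endothelial-like cells of library 2 under 4 alternatives. Itgal of library 1 was highest in mature neutrophil-like cells under 3. Selplg was highest in NK-like cells of library 1 at resolution 0.5 and with separate clustering, and in mature neutrophil-like cells of library 2 at resolution 0.5. The share of all measured genes with a shared highest class ran from 48.3% to 66.2%, and the 2-fold share from 7.57% to 14%.

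Levels in the highest class moved by over 1.5-fold in 10 of 224 settings. All 10 lay in plasmacytoid dendritic-like, NK-like or macrophage-like cells, 5 of them at resolution 0.5 and 3 with each library clustered on its own. With separate clustering Itga4 and Itgal in NK-like cells of library 2 had 309.7 and 191 CPM. Vcam1 in macrophage-like cells of library 2 had 256 CPM merged with monocyte-like cells. The cause was not tested. No paired analysis was possible because neither library has a group label and no test was made.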
